A study of Homo sapiens with 2 samples.

Results

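The genes described here are the 113 whose RNA stood lower in 3 strongly responding groups of OVCAR5 cells than in a comparison group. OVCAR5 is an established ovarian carcinoma cell line, and the cells used carried a reporter that senses interferon gamma (IFNγ) and were positive for the fluorescent protein CFP. They were exposed in culture to 1, 10 or 100 ng/ml IFNγ or left unstimulated for 2, 6, 12 or 24 h, and frozen cells of the 100 ng/ml and the unstimulated 24 h conditions were added, which makes 18 conditions. All conditions were pooled before droplet-based 3′ RNA sequencing, and each cell was marked by a pair of 8 barcoded antibodies (hashtags). The labels used here do not tie hashtag pairs to conditions, so each group of cells is named by its pair and no dose or time is given to it. The pool is 1 sample without replicates: values are sums over the cells of a pair, intervals cover counting error only, and no test was made between pairs.

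The 113 members were chosen from measured values. A member had at least 20 CPM (UMIs of a gene per 1000000 UMIs of the pair) in pair 5+7 and at most 0.67 of that value in each of pairs 5+8, 6+8 and 7+8. They were 113 of 36601 genes in the matrix, and 2.02% of the 5598 genes with at least 20 CPM in pair 5+7. Values of these 4 pairs are therefore a description of the choice. The other 14 pairs hold other cells of the same pool and did not enter it. The members just inside the ratio limit were CRNDE, UXS1 and FADS1, with highest ratios of 0.669, 0.667 and 0.666, and the genes just outside were TXNRD1, SKAP2 and GET1, with 0.671, 0.672 and 0.672. At the CPM limit, CRNDE, AP002360.1 and PLS1 lay just inside with 20.6, 20.7 and 20.8 CPM in 5+7, and IL6R, CYB5R1 and MEST just outside with 19.7, 19.2 and 18.9 CPM.

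Of 7804 barcodes, 7201 passed the cell filter and 6114 fell into 18 of 28 possible pairs, with 166 to 493 cells and 5392185 to 16184801 UMIs (unique molecular identifiers, counted RNA molecules) a pair. Median depth was 27824.5 to 32945 UMIs a cell. The carcinoma label was checked against markers: the 8 epithelial genes summed to 3293 to 5582 CPM, led by KRT18 and KRT8, while PAX8 stayed at 1.98 to 4.88 CPM, MUC16 at 0 to 0.666 CPM and CDH1 at 0.185 to 3.03 CPM. The 3 mesenchymal genes summed to 2151 to 3103 CPM, nearly all from VIM, with 3024, 3062 and 3070 CPM in 5+8, 6+8 and 7+8, against 2758 CPM in 5+7, and the part of this in the members' levels was not tested. Markers of T cells summed to 0 to 0.287 CPM (CD3E and CD2 at 0), those of B cells to 0 to 0.209 CPM (MS4A1 at 0), those of fibroblasts to 0.264 to 1.67 CPM (COL1A2 at 0) and those of endothelium to 0 to 0.618 CPM (CDH5 at 0). The myeloid list summed to 28.1 to 43.2 CPM, nearly all from CD68, with TYROBP at 0.

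IFNγ binds its receptor on tumour cells, and the signal induces the transcription factor IRF1 within hours and, later, antigen presentation genes such as CD74. A different circuit protects cells from oxidants: the sensor KEAP1 holds down the transcription factor NRF2 (gene NFE2L2), and when electrophiles disable KEAP1, NRF2 binds antioxidant response elements and induces genes of glutathione synthesis, cystine uptake, aldehyde reduction and NADPH supply. Among the members, AKR1B10, AKR1C3, GCLC, HMOX1, OSGIN1, SLC7A11, PIR and TRIM16L are known as targets of NRF2 in human cells. Equally well-known targets, NQO1, TXNRD1 and GCLM, were not members, but NQO1 and TXNRD1 lay near the ratio limit. Their ratios of summed counts in 5+8, 6+8 and 7+8 to 5+7 were 0.678 (0.659 to 0.698) and 0.640 (0.622 to 0.659).

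The pairs fall into 5 comparisons without shared cells, each with responding pairs and a comparison pair, named with the IRF1 values known. IRF1 stood at 1322, 1349 and 1357 CPM in 1+3, 1+4 and 1+6, against 57.9 CPM in 1+2. In the other responding pairs it lay between 808 and 1058 CPM, and in the other comparison pairs between 43.7 and 70.8 CPM. CD74 separated the sets: it had 19.1, 21.6 and 23.1 CPM in 1+3, 1+4 and 1+6, against 20.1 CPM in 1+2. It had 190, 208 and 183 CPM in 2+6, 2+8 and 3+4, against 18.4 CPM in 2+4. In 3+7, 4+7 and 5+6 it had 592, 650 and 660 CPM, against 16.003 CPM in 3+5. It reached 1183, 1245 and 1278 CPM in 5+8, 6+8 and 7+8, against 19.5 CPM in 5+7, and 1039 CPM in 2+5, against 16.9 CPM in 1+5.

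Promoter sequences are shown for PIR and LUCAT1, a redox member and a long noncoding RNA, because both windows hold the same 9 letters of an antioxidant response element core. The windows run from 250 bases before to 50 bases after the RefSeq start on GRCh38.p14, both on the minus strand (PIR at chrX:15493284-15493583, LUCAT1 at chr5:91314353-91314652), and the capitals mark the match, which reads on the strand opposite to the gene.
PIR: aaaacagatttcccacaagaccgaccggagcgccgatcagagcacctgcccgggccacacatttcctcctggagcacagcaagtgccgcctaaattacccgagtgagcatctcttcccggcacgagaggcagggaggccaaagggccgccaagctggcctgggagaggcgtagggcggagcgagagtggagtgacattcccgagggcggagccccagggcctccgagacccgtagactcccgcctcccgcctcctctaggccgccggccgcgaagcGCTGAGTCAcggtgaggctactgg
LUCAT1: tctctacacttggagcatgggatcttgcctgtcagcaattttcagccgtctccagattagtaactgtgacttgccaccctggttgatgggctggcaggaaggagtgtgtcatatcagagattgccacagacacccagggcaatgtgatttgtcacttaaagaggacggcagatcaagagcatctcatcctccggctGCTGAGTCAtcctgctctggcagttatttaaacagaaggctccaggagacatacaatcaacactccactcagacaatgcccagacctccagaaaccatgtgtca

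The core was searched as TGACNNNGC on both strands. RefSeq gave a promoter for 86 of the 113 members, and 12 of them (13.95%) held the core, against 16.2% of the 4565 promoters of genes at 20 CPM or more in 5+7 and 13.6% of all 27305 promoters. The gamma-activated sequence TTCNNNGAA, whose reverse is itself, was in 7 member promoters (8.14%), against 6.57% and 7.88% of the same sets. The interferon-stimulated response element core (GAAA, any 2 bases, GAAA, both strands) was in 2 (2.33%), against 2.85% and 3.65%. The members' shares thus lay near those of other genes for each motif, and a match in such a window is no binding site.

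Over the comparisons that did not choose them, the number of members that were low differed from set to set. Low is used here for at most 0.67 of the comparison pair in each responding pair. In 1+3, 1+4 and 1+6 against 1+2, none of the 113 was low (background 0.0354% of genes at 20 CPM or more), and the median ratio was 0.946, against 0.997 over all genes. In 2+6, 2+8 and 3+4 against 2+4, 12 were low (background 0.521%) and the median ratio was 0.813, against 0.960 over all genes. In 3+7, 4+7 and 5+6 against 3+5, 49 were low (background 1.31%), with a median ratio of 0.665, against 0.943. In 2+5 against 1+5, 93 were low (background 4.03%), with a median ratio of 0.554, against 0.947. A single responding pair makes this limit easier to meet. Some members were under 20 CPM in those comparison pairs, and among the members at 20 CPM or more the low counts were 0 of 104, 7 of 94, 39 of 91 and 85 of 103.

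**Figure D1:**
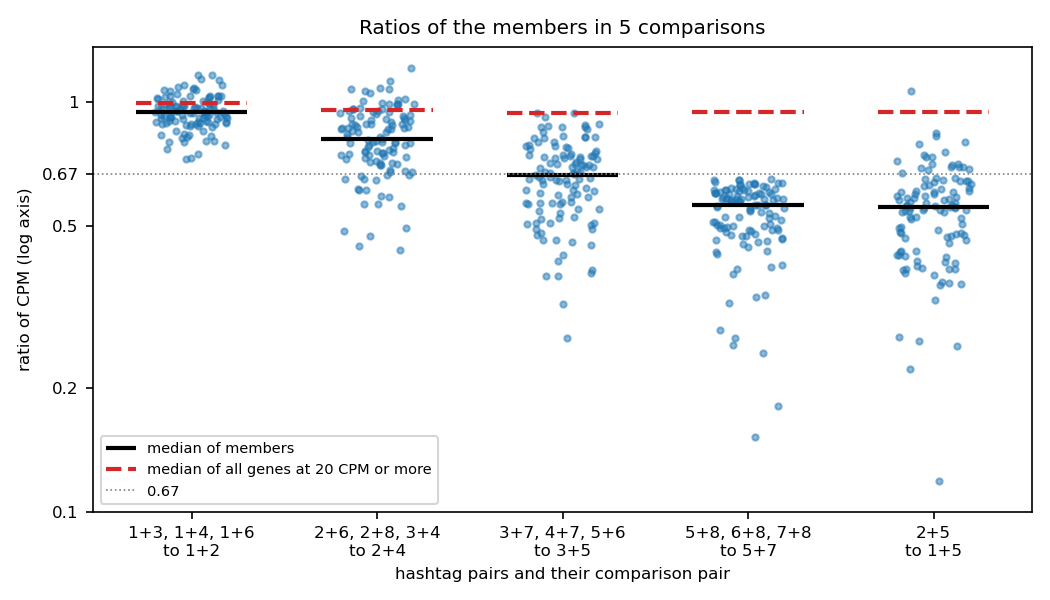
Ratio of mean CPM in the responding pairs to CPM in the comparison pair (log axis) for each of the 113 members (points), with the members' median (black) and the median of all genes at 20 CPM or more (red dashed). Member medians were 0.946, 0.813, 0.665, 0.560 and 0.554 from left to right; the fourth column chose the members and lies under 0.67 by the rule.

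The low members overlapped between comparisons. Of the 12 low in the 2+4 set, 11 were among the 49 low in the 3+5 set, which are 43.4% of all members. All 12 were low in 2+5, as were 82.3% of all members. Of the 49 in the 3+5 set, 48 were low in 2+5, WSB2 being the exception. At a share of 82.3%, most of any group of members would be low in 2+5, so these 2 overlaps show little. The 11 low in all 3 were SGK2, CAVIN2, DEXI, PDE1C, GCLC, OTULINL, GDF15, TSHZ1, BDNF, FZD7 and ODC1. A further 19 members, among them TPM1, S100A4, LUCAT1, CRNDE and CCNF, were low in no other comparison. Within a set, the median ratio of highest to lowest responding pair was 1.12 for members in 5+8, 6+8 and 7+8. Over all genes at 20 CPM or more in 5+7 it was 1.07. In the other 3 sets it was 1.09 to 1.13 for members, against 1.07 to 1.08 over the same genes. The members thus differed slightly more between responding pairs than all genes did.

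**Figure D2:**
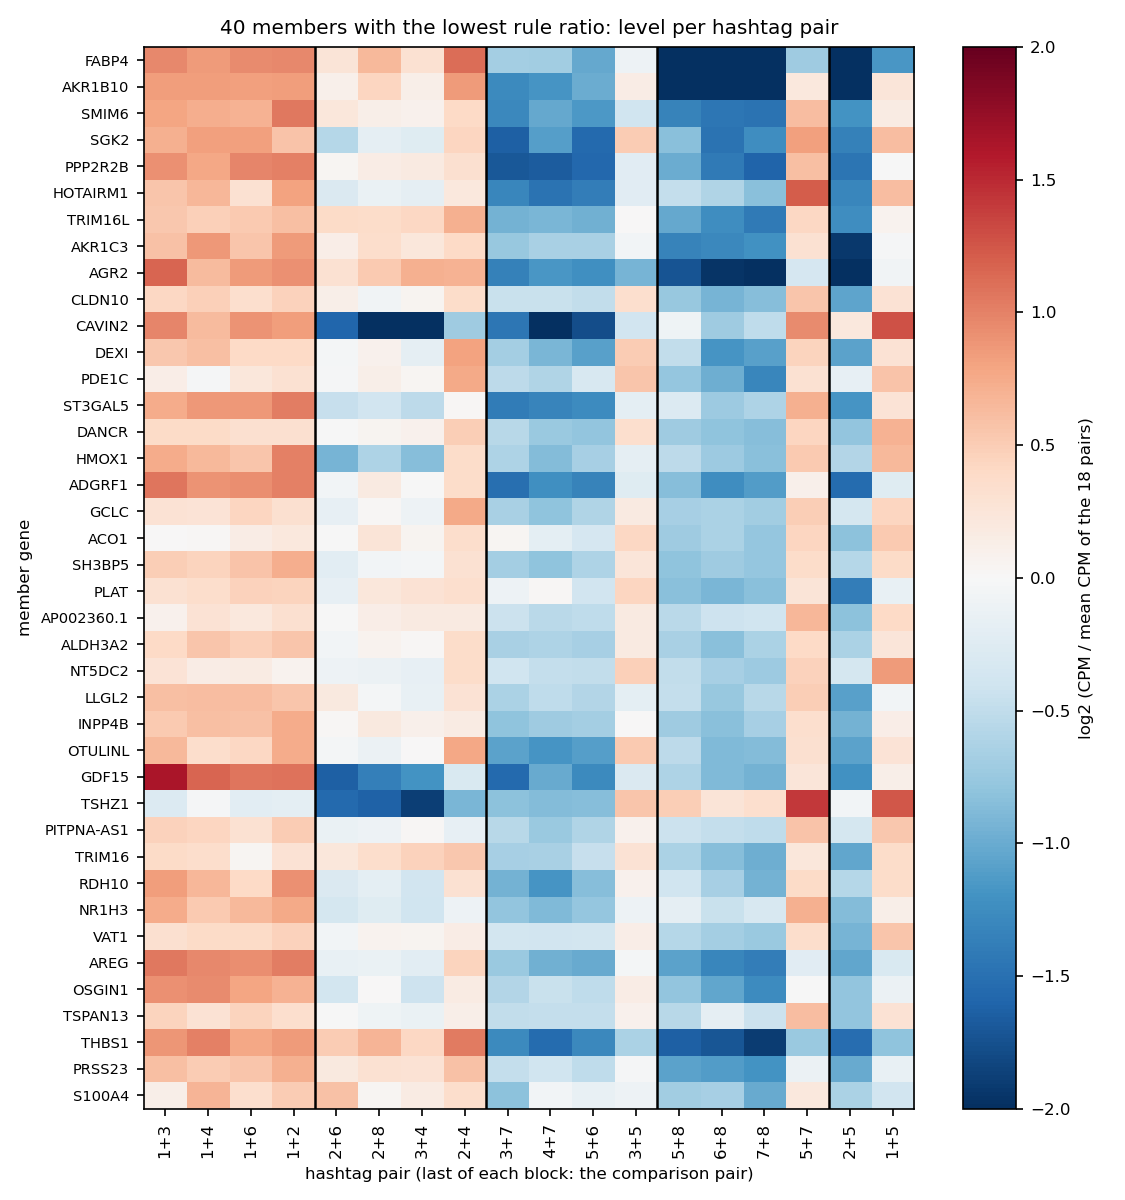
Level of the 40 members with the lowest ratio in the choosing pairs (rows) over the 18 pairs (columns), as log2 of CPM over the gene's mean of the 18 pairs; lines part the 5 comparisons and the last column of each is its comparison pair. Most rows are red in 1+2 and its set, and blue in 3+7, 4+7, 5+6, 5+8, 6+8, 7+8 and 2+5.

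Redox and detoxification genes formed the largest named group, 17 members assigned by hand, with a median ratio of 0.495 in the choosing pairs. All 17 were low in 2+5, 8 in the 3+5 set and 2 in the 2+4 set. Of all 113 members 82.3%, 43.4% and 10.6% were low in these comparisons, and the counts of this and the following groups are to be read against those shares. The 8 and the 2 redox genes lay near them. AKR1B10 (chromosome 7, 134527592 to 134541408, GRCh38), an aldo-keto reductase of aldehydes and retinal, had 13.9, 10.1 and 11.01 CPM in 5+8, 6+8 and 7+8, against 64.3 CPM in 5+7. It had 7.79 CPM in 2+5, against 65.7 CPM in 1+5, a ratio of 0.119 (95% interval 0.0845 to 0.163). It had 23.1, 24.7 and 28.2 CPM in 3+7, 4+7 and 5+6, against 62.0 CPM in 3+5. In 2+5 and in each responding pair of the 3+5 set, AKR1B10 thus lay below its comparison pair. Of all genes at 20 CPM or more, 64.2% and 59.3% did so too. In 5+8, 6+8 and 7+8 the rule fixed this. In 1+3, 1+4 and 1+6 AKR1B10 had 99.8, 99.8 and 98.6 CPM, against 99.2 CPM in 1+2.

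AKR1C3, which reduces steroids and prostaglandins, had 13.5, 13.9 and 14.7 CPM in 5+8, 6+8 and 7+8, against 42.0 CPM in 5+7. In 2+5 it had 8.90 CPM, against 33.3 CPM in 1+5 (ratio 0.268, 0.192 to 0.365). Its near-identical relatives AKR1C1 and AKR1C2 were under the CPM limit, with 13.7 and 10.7 CPM in 5+7, and the handling of reads that fit several of these genes was not given, so the AKR1C values are uncertain between genes. The same holds for TRIM16 and TRIM16L, a pair of related tripartite motif genes. TRIM16L had 17.7, 15.2 and 13.4 CPM in 5+8, 6+8 and 7+8, against 47.7 CPM in 5+7, and TRIM16 had 14.8, 12.7 and 11.7 CPM, against 26.8 CPM.

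GCLC, the catalytic subunit of the enzyme that starts glutathione synthesis, was low in 3 of the comparisons that did not choose it. It had 26.1, 29.6 and 27.2 CPM in 2+6, 2+8 and 3+4, against 49.1 CPM in 2+4 (ratio 0.561, 0.502 to 0.628). It had 18.6, 16.6 and 19.1 CPM in 3+7, 4+7 and 5+6, against 32.9 CPM in 3+5. HMOX1, which breaks down heme, had 10.97, 13.7 and 11.5 CPM in 2+6, 2+8 and 3+4, against 27.0 CPM in 2+4, the lowest ratio of the group there (0.443, 0.378 to 0.519). SLC7A11, the cystine importer that feeds glutathione synthesis, had 51.8, 56.2 and 53.7 CPM in 3+7, 4+7 and 5+6, against 117 CPM in 3+5 (ratio 0.461, 0.431 to 0.492). TKT, a transketolase of the pentose phosphate pathway, had 413 CPM in 2+5, against 643 CPM in 1+5 (ratio 0.642, 0.610 to 0.674), and 694, 738 and 741 CPM in 2+6, 2+8 and 3+4, against 780 CPM in 2+4.

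The wider list of oxidative stress and iron genes, members included, showed the same order. Of its 20 genes at 20 CPM or more in 5+7, 7 were members and 13 were not. Its median ratio was 0.973 in the 1+2 set, 0.933 in the 2+4 set, 0.840 in the 3+5 set and 0.696 in 2+5 to 1+5. Its low counts there were 0 of 20, 2 of 20, 4 of 19 and 8 of 20, to be read against the background shares above. The 2 in the 2+4 set were the members GCLC and HMOX1. These medians and counts include members and were not computed for the other genes alone, so they give no separate support. Of genes outside the members, TXNRD1, a thioredoxin reductase, had 454 CPM in 2+5, against 669 CPM in 1+5, and NQO1, a quinone reductase, had 351 CPM in 2+5, against 517 CPM in 1+5. GCLM, the modifier subunit of the same enzyme as GCLC, ran the other way in 3 sets. It had 85.4, 86.2 and 88.8 CPM in 2+6, 2+8 and 3+4, against 52.2 CPM in 2+4, while GCLC was low there. It had 60.2, 58.3 and 57.7 CPM in 1+3, 1+4 and 1+6, against 41.8 CPM in 1+2, and 53.2, 43.1 and 52.3 CPM in 3+7, 4+7 and 5+6, against 38.5 CPM in 3+5. In 2+5 it had 44.9 CPM, against 45.6 CPM in 1+5. In the choosing pairs, 18 of the list's 20 genes lay below 5+7 in every responding pair, the 7 members by the rule. Of the 20, 0 lay above 5+7 in every responding pair. NFE2L2 and KEAP1, looked up after the member values were seen, had ratios of 1.07 (0.97 to 1.19) and 1.08 (0.92 to 1.27) in 2+5 to 1+5. NFE2L2 had 1.16 (1.11 to 1.22) in the 1+2 set, 1.14 (1.07 to 1.21) in the 2+4 set, 1.01 (0.955 to 1.07) in the 3+5 set and 1.05 (0.984 to 1.12) in the choosing pairs. KEAP1 had 0.962 (0.866 to 1.07), 0.918 (0.828 to 1.02) and 1.003 (0.917 to 1.10) in these 3 sets and 1.13 (1.02 to 1.25) in the choosing pairs.

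**Figure D3:**
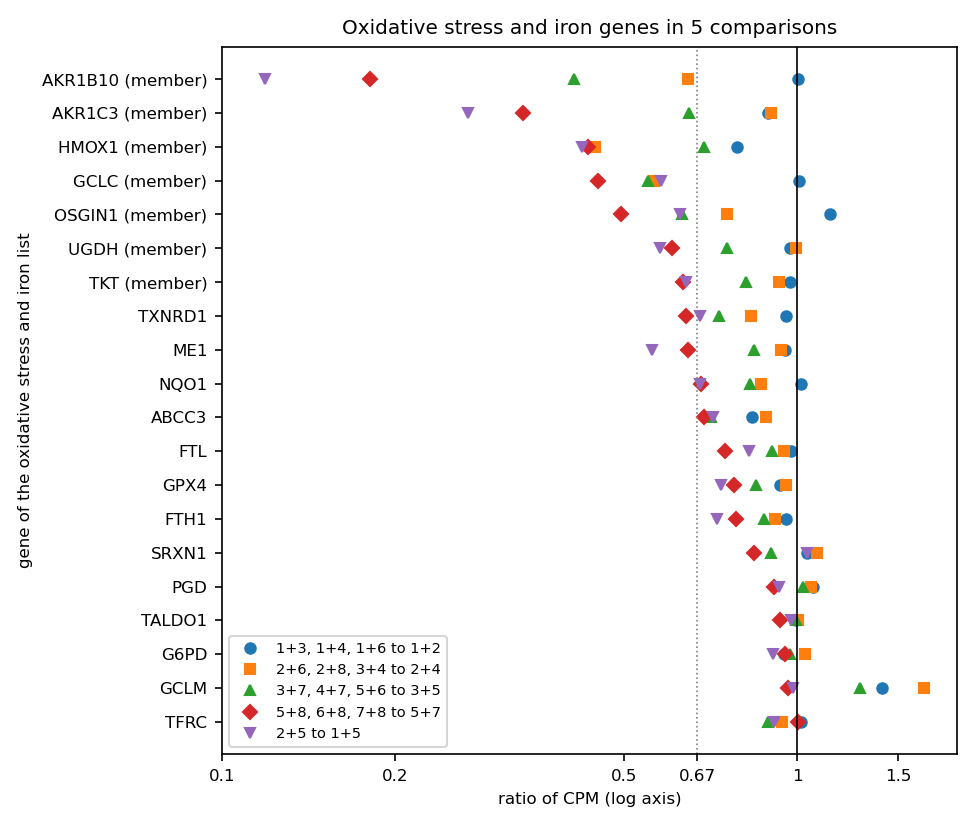
Ratio of mean CPM in the responding pairs to the comparison pair (log axis) for the 20 genes of the oxidative stress and iron list at 20 CPM or more in 5+7; each symbol is a comparison, and the dotted line is 0.67. The 7 members lie furthest left for 5+8, 6+8 and 7+8 to 5+7, as the rule chose them, and AKR1B10 lies at 0.119 in 2+5 to 1+5.

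Retinoid handling was represented by 4 members, all low in 2+5 and 3 of them in the 3+5 set. RDH10, which oxidises retinol to retinal, had 11.2, 9.48 and 11.9 CPM in 3+7, 4+7 and 5+6, against 22.9 CPM in 3+5. ALDH1A3, which makes retinoic acid from retinal, had 87.2, 95.03 and 82.8 CPM in these pairs, against 156 CPM in 3+5 (ratio 0.566, 0.536 to 0.597). DHRS3, which reduces retinal back to retinol, had 62.0, 55.3 and 63.7 CPM in 5+8, 6+8 and 7+8, against 117 CPM in 5+7. Its comparison pairs differed by 4.63-fold, with 125 CPM in 1+2 and 26.9 CPM in 2+4, and its 24.4, 30.0 and 25.6 CPM in 2+6, 2+8 and 3+4 enclosed the 2+4 value.

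Lipid genes included the member with the lowest ratio of all. FABP4, a fatty acid carrier best known from fat cells and macrophages, had 15.7, 6.40 and 8.05 CPM in 5+8, 6+8 and 7+8, against 65.9 CPM in 5+7 (ratio of summed counts 0.145, 0.126 to 0.165). It had 129, 169 and 133 CPM in 2+6, 2+8 and 3+4, against 235 CPM in 2+4, and 22.6 CPM in 2+5, against 48.1 CPM in 1+5. Its comparison pairs ranged over 4.88-fold, so its level in 2+6 was above that in 5+7. ST3GAL5, which makes the ganglioside GM3, had 27.7, 29.2 and 30.4 CPM in 3+7, 4+7 and 5+6, against 63.9 CPM in 3+5. The sterol sensor NR1H3 (liver X receptor alpha) and the fatty acid desaturase FADS1 had ratios of 0.505 (0.379 to 0.666) and 0.628 (0.563 to 0.700) in 2+5 to 1+5. TM7SF2, a sterol reductase, was low in no comparison outside the choosing pairs.

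Of 6 secreted ligands, 5 were low in the 3+5 set, and 2, GDF15 and BDNF, also in the 2+4 set. BDNF, a neurotrophin, had 25.6, 25.5 and 29.8 CPM in 2+6, 2+8 and 3+4, against 54.6 CPM in 2+4 (ratio 0.494, 0.443 to 0.550). GDF15, a stress-induced cytokine, had 6.70, 8.01 and 9.07 CPM there, against 16.8 CPM in 2+4. In 1+3, 1+4 and 1+6 GDF15 stood at 64.4, 46.4 and 43.4 CPM, against 44.0 CPM in 1+2, so these groups overlapped. AREG, a ligand of the EGF receptor, had 217, 188 and 181 CPM in 3+7, 4+7 and 5+6, against 356 CPM in 3+5 (ratio 0.551, 0.531 to 0.571). Its mean ratio in the choosing pairs, 0.493, was 0.763 when only cells at or under their pair's median of cell cycle transcripts were summed. FZD7, a frizzled receptor for Wnt ligands, had 8.31, 8.59 and 9.33 CPM in 2+6, 2+8 and 3+4, against 17.996 CPM in 2+4. LGR4, the R-spondin receptor that strengthens Wnt signals, had 39.1 CPM in 2+5, against 70.6 CPM in 1+5.

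Surface, secreted and structural genes came next in number. Among 14 receptors, channels and surface proteins, 12 were low in 2+5 and 6 in the 3+5 set, near the shares of all members. CLDN10, a tight junction claudin, had 27.8, 27.9 and 26.9 CPM in 3+7, 4+7 and 5+6, against 48.1 CPM in 3+5. Of 9 matrix, mucin and protease genes, 8 were low in 2+5, among them AGR2, a disulfide isomerase of mucin-making cells, with 7.23 CPM, against 32.4 CPM in 1+5. The protease PRSS23 had 101 CPM in 2+5, against 183 CPM in 1+5. Of 11 genes of cytoskeleton and membrane traffic, 9 were low in 2+5 and 2 in the 3+5 set. RAP1B, a small GTPase of adhesion, had 218, 216 and 214 CPM in 3+7, 4+7 and 5+6, against 324 CPM in 3+5. KRT7, a simple epithelial keratin, had 177 CPM in 2+5, against 301 CPM in 1+5. CAVIN2, a coat protein of caveolae, had a mean ratio of 0.392 in the choosing pairs, which was 0.588 in cells at or under their pair's median of cell cycle transcripts.

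All 8 signalling enzymes and inhibitors were low in 2+5, and 6 in the 3+5 set. SGK2, a serum- and glucocorticoid-regulated kinase, had 4.28, 6.23 and 4.54 CPM in 3+7, 4+7 and 5+6, against 18.9 CPM in 3+5 (ratio 0.264, 0.217 to 0.320). PPP2R2B, a regulatory subunit of protein phosphatase 2A, had 9.51, 9.68 and 10.3 CPM, against 26.1 CPM in 3+5. ODC1, which starts polyamine synthesis, had 128, 122 and 123 CPM there, against 246 CPM in 3+5, and 169, 172 and 171 CPM in 2+6, 2+8 and 3+4, against 262 CPM in 2+4. In 1+3, 1+4 and 1+6 it stood above 1+2, with 171, 177 and 166 CPM, against 151 CPM. Of the 4 genes of transcription and chromatin, TSHZ1, a zinc finger homeobox gene, had 6.46, 6.23 and 6.33 CPM in 3+7, 4+7 and 5+6, against 16.8 CPM in 3+5.

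Of 10 noncoding RNAs, 8 were low in 2+5 and 6 in the 3+5 set, against 82.3% and 43.4% of all members. DANCR, a long noncoding RNA that also hosts small RNAs, had 65.6, 57.8 and 55.7 CPM in 3+7, 4+7 and 5+6, against 122 CPM in 3+5, and 56.0 CPM in 2+5, against 157 CPM in 1+5. HOTAIRM1 and HOXA-AS2, transcribed from the HOXA cluster and 7512 bp apart on chromosome 7, were both low in these comparisons. LUCAT1, whose promoter is printed above, had 45.8, 48.7 and 52.1 CPM in 3+7, 4+7 and 5+6, against 75.5 CPM in 3+5, a ratio of 0.646 that left 1 pair above the limit. The use of strand in counting was not stated by the labels or headers, so reads of antisense RNAs and of their overlapping genes may not be told apart.

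**Figure D4:**
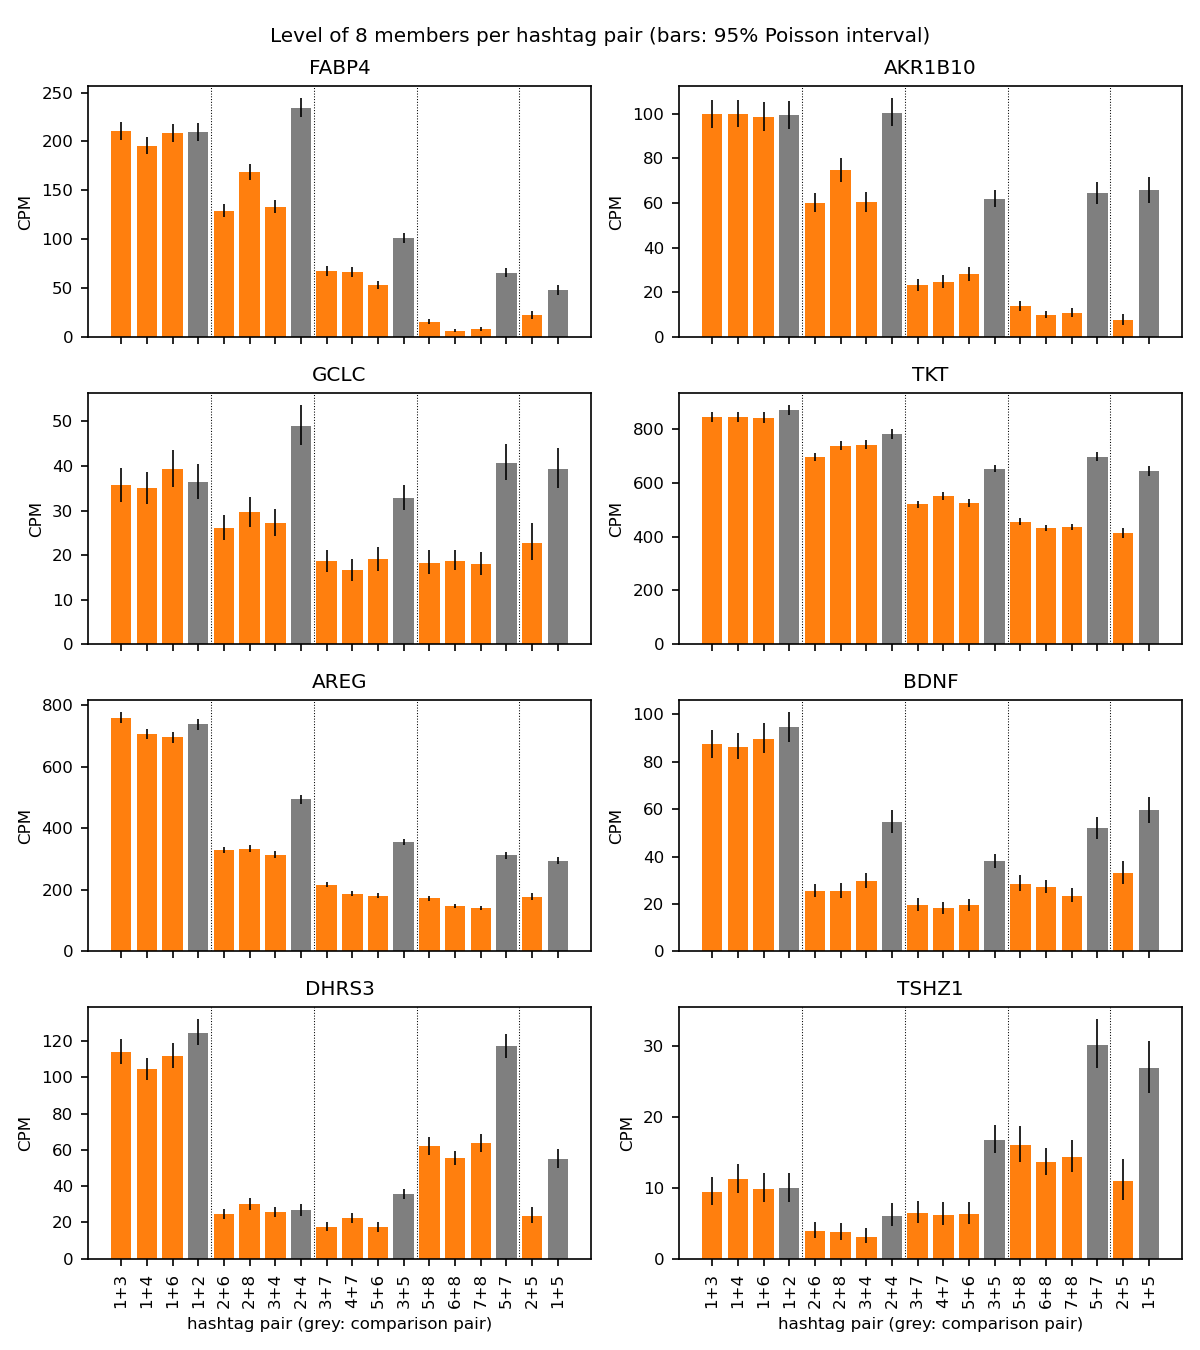
CPM of 8 members in the 18 pairs, responding pairs in orange and comparison pairs in grey, with 95% Poisson intervals of the counts; dotted lines part the 5 comparisons. AKR1B10 stands between 98.6 and 99.8 CPM throughout the first block, and BDNF is lower in the responding pairs of the other 4 blocks.

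The comparison pairs differed among themselves. Across 1+2, 2+4, 3+5 and 1+5, which did not choose the members, 28 of 113 (24.8%) differed by 2-fold or more, against 3.20% of the 5598 genes, and 50 (44.2%) by less than 1.5-fold, against 84.3%. The highest of the 4 was 1+2 for 59 members, 2+4 for 26, 1+5 for 25 and 3+5 for 3. With 5+7 included, whose value the rule used, the members with 3-fold or more, chosen here after their values were seen, were ELF3 (6.92-fold), TSHZ1 (4.98-fold), FABP4, DHRS3, STC2, CAVIN2 (3.95-fold), THBS1, AGR2 and TM7SF2. ELF3, an epithelial transcription factor, had 54.1 CPM in 5+7 and 7.82 CPM in 2+4, while FABP4 had 65.9 CPM in 5+7 and 235 CPM in 2+4, so members did not share 1 order of comparison pairs. Summed over the 113 members, the level was 9013, 8804 and 8819 CPM in 1+3, 1+4 and 1+6, against 9420 CPM in 1+2. It was 6875, 7157 and 6929 CPM in 2+6, 2+8 and 3+4, against 8818 CPM in 2+4, and 4836, 4851 and 4739 CPM in 3+7, 4+7 and 5+6, against 7176 CPM in 3+5. The sum was 3892 CPM in 2+5, against 6922 CPM in 1+5. The responding pairs thus lay below their comparison pair in every set, by the least in the 1+2 set.

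Single cells also showed the lower level, with ranges that overlapped in most comparisons. With each cell thinned to 10000 UMIs, and 158 shallower paired cells left out, the members took a median of 0.38% of a cell's UMIs in 2+5 (10th to 90th percentile 0.28% to 0.51%), against 0.69% in 1+5 (0.52% to 0.90%). In 3+7, 4+7 and 5+6 the medians were 0.47%, 0.46% and 0.46%, against 0.70% in 3+5. The 90th percentile in 2+5 lay below the 10th percentile in 1+5. In 3+7, 4+7 and 5+6 the 90th percentiles were 0.64%, 0.64% and 0.606%, above the 10th percentile of 0.52% in 3+5. In 2+6, 2+8 and 3+4 they were 0.895%, 0.92% and 0.89%, above that of 0.64% in 2+4. In 1+3, 1+4 and 1+6 they were 1.19%, 1.15% and 1.18%, above that of 0.67% in 1+2. In the choosing pairs, AKR1B10 had a UMI in 11.01%, 7.91% and 8.41% of thinned cells of 5+8, 6+8 and 7+8, against 23.3% in 5+7, and unthinned in 22.2%, 19.01% and 18.8%, against 43.1%. TKT was found in nearly every thinned cell, 96.9%, 96.3% and 98.6% in 5+8, 6+8 and 7+8, against 99.4% in 5+7, with a mean of 4.69, 4.49 and 4.40 UMIs in cells that had any, against 7.24. The pool holds no cell type known to lack these genes, so the share that free RNA gives was not measured.

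**Figure D5:**
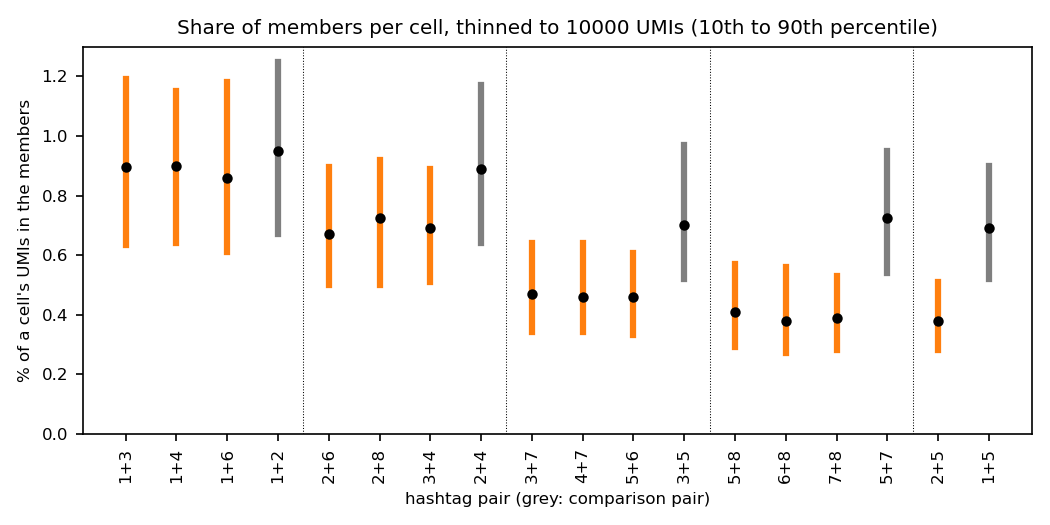
Share of a cell's UMIs in the 113 members, each cell thinned to 10000 UMIs, by pair: bars run from the 10th to the 90th percentile over cells and points are medians, with comparison pairs in grey. The median is 0.38% in 2+5, against 0.69% in 1+5, and lies between 0.86% and 0.95% in the 4 pairs of the first block.

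Most members belonged to none of 30 gene lists compiled for this tissue and treatment: 22 were in a list and 91 in none. The same share over all 5598 genes was not counted, so 22 of 113 is read neither as high nor as low. No member was among the 48 interferon response genes at 20 CPM or more, all of which lay above 5+7 in 5+8, 6+8 and 7+8. No S phase gene of 29 and no G2/M gene of 40 in the lists was a member, with median ratios of 0.997 and 0.907 in the choosing pairs. None of 30 cytosolic ribosomal protein genes (0.903) or 11 housekeeping genes (0.964) was a member either. Members were 2.02% of all genes at 20 CPM or more in 5+7, so lists of these sizes would hold few or none at that share. CCNF, the cyclin F gene, was a member but in none of the lists. Apart from oxidative stress, no list held more than 2 members. The members made up 2.40% of genes at 20 to 50 CPM in 5+7, 2.32% of those at 50 to 100 CPM and 1.02% of those above. By GENCODE 29, 103 members were protein-coding (91.2%, against 98.3% of the 5598 genes), and their median gene length was 29737 bp, against 29306 bp. Some were neighbours, such as TSPAN13 and AGR2, 7275 bp apart on chromosome 7.

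Other values differed between the pairs as well. The 40 G2/M genes summed to 6339 CPM in 2+5, against 6531 CPM in 1+5, and to 5905, 5891 and 5208 CPM in 3+7, 4+7 and 5+6, against 6172 CPM in 3+5. Cells with 5 or more UMIs of the antiviral genes CCL5, RSAD2, HERC5 and OASL numbered 31 of 325 in 5+8, 50 of 463 in 6+8 and 41 of 356 in 7+8. In 5+7 they were 18 of 334. Without such cells, 9 members were low in the 2+4 set, 50 in the 3+5 set and 92 in 2+5. The median log2 ratio of all genes was -0.08 in the 3+5 set, the furthest from 0 of the 5 comparisons. The part of these differences in the members' levels was not tested, nor can fewer cells with a transcript and less RNA per cell be told apart from the pair sums alone.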

How the data were processed

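Single-cell 3′ gene expression and hashtag libraries of 1 pool of OVCAR5 cells were analysed, both in 1 matrix over the same barcodes. The authors deposited counts of UMIs, not normalized, for every gene or hashtag in every barcode. The file header names Cell Ranger 5.0.1 and the submitters' processing notes Cell Ranger 2.1.1 with GRCh38; which run made the matrix was not settled. No replicates, and no map from hashtags to conditions, were used here.

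Barcodes under 500 detected genes or over 20% mitochondrial UMIs were dropped. A cell was given its 2 highest hashtags where the second had at least 5 times the UMIs of the third plus 1, and pairs of 100 or more cells were used. No doublet caller was run: cells with a further hashtag entered no pair, and doublets within a pair remain. UMIs were summed per pair and scaled to CPM. A mean ratio is the mean CPM of the responding pairs over the comparison pair, and ratios printed with an interval are of summed counts. Intervals are 95% exact Poisson, conditional (ratios) or Clopper-Pearson (shares) and cover counting error only. Thinning used 10000 UMIs a cell.

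The members, the sets of pairs and the gene lists were chosen with earlier results of these data known. Role groups were assigned by hand to all 113 members after their names were seen. Named genes were the 25 members with the lowest mean ratio, the 15 with the highest CPM in 5+7, up to 4 per gene list by CPM, the 3 on either side of each limit, 10 that were low in most sets and the 5 with the highest ratios in the 2+4 and 3+5 sets; other members are named from their role group, after their values were seen, as are NFE2L2, KEAP1 and the promoters of PIR and LUCAT1. Gene positions are from GENCODE 29 by Ensembl ID (113 of 113 matched) and promoters from RefSeq on GRCh38.p14. The steps were tested on simulated data. Python 3.11.15, numpy 2.4.6, scipy 1.17.1 and pandas 2.3.3 were used. Alternatives covered the cell filter, hashtag rule, depth, scaling, cells entering and the limits of the rule. Members not named in the text are given by counts and medians of their group.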

Additional observations from a re-analysis of the deposited data

Results flagged for a closer look

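Members that stood above their comparison pair in every responding pair of a set, although lower in 5+8, 6+8 and 7+8, are listed with their mean ratios; the difference between the sets was not tested. In 1+3, 1+4 and 1+6 to 1+2 there were 14 of 113 (12.4%, against 26.5% of all genes): SGK2 (1.16), OSGIN1 (1.14), ODC1 (1.14), WSB2 (1.10), SWI5 (1.10), NT5DC2 (1.09), SERPINE2 (1.08), TM4SF18 (1.07), NUDT3 (1.07), DNM1 (1.07), EPHX1 (1.04), CRNDE (1.04), LLGL2 (1.03) and CCDC167 (1.03). The counting interval excluded 1 for ODC1 (1.07 to 1.21), OSGIN1 (1.04 to 1.26) and SERPINE2 (1.003 to 1.16). In 2+6, 2+8 and 3+4 to 2+4 there were 6 (5.31%, against 21.4% of all genes): CRNDE (1.22), CHD3 (1.13), ETFRF1 (1.08), SWI5 (1.08), PITPNA-AS1 (1.07) and PPIC (1.05), and the interval excluded 1 for CRNDE (1.01 to 1.47).

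Barcodes outside the comparisons also held the members' RNA. The 603 barcodes that failed the cell filter summed to 3215 CPM over the members, where a count of 3 would be 0.756 CPM. The 1087 filtered cells without a pair summed to 6404 CPM, with a median of 51617 UMIs a cell.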

How the results depend on the processing

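The number of genes meeting the rule was 90 to 134 under the 9 alternatives of cells, depth and scaling, against 113, and 82 to 113 of the 113 members met it there, fewest with thinned cells. It moved with the limits themselves: 47 genes at 50 CPM, 193 at 10 CPM, 21 at a ratio of 0.5, 265 at 0.75, and 48 where the upper end of the interval had to be at most 0.67. Under the same 9 alternatives, 9 to 16 members were low in the 2+4 set, 40 to 52 in the 3+5 set and 86 to 95 in 2+5. In the 1+2 set the count was 0 except in cells at or under their pair's median of cell cycle transcripts, where it was 2; the cause was not tested. For 55 named members, 495 ratios were recomputed, all in the choosing pairs. Of these ratios, 465 stayed within the main counting interval, 30 left it and 0 changed direction. The rule had already held them to at most 0.67 in the main run, so the absence of a change of direction was nearly fixed in advance. It says nothing about the other comparisons, where ratios of single members were not compared in this way. No paired analysis was possible because the pool is 1 sample without replicates. Counting error limits the members near 20 CPM most, and variation between cultures was not measured.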
